A study of Mus musculus with 8 samples.

Results

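CHD4 is a chromodomain helicase whose ATPase activity drives nucleosome remodelling by the NuRD complex. The regions described here are CHD4 peaks of neurons that overlap no CHD4 peak of proliferating cells, overlap no protein-coding gene and lie more than 1 kb from every protein-coding gene end. They number 581 of the 4599 peaks in the neuron CHD4 list (12.6%), and are called neuron-only intergenic peaks below. Of the whole list, 1499 peaks (32.6%) were listed in neurons only and 1465 (31.9%) lay between genes. The cells were wild-type iMOPs, immortalized multipotent otic progenitors of the mouse, 1 line used in both states and labelled as having no treatment. Proliferating cells were kept in DMEM/F12 with B27, carbenicillin and 20 ng/ml bFGF, a growth factor. The neurons derived from them were kept in Neurobasal medium with N21, L-glutamine and 1 µM K03861, an inhibitor of the kinase CDK2. CUT&Tag, in which an antibody directs protein A-Tn5 transposase to cut and tag nearby DNA, was done for CHD4, for the acetyltransferase p300 and for H3K4me3, with 1 library of 500000 cells per antibody and state. The series title names axon guidance of spiral ganglion neurons, the cells that carry sound signals from the cochlea to the brain, as the subject of the study.

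Enhancers are stretches of DNA, often far from genes, that raise transcription of a gene when transcription factors bind them. Active enhancers commonly carry p300, which acetylates histones, while H3K4me3 marks promoters in use. NuRD joins a remodelling ATPase to histone deacetylases, and is known both at enhancers and at promoters, where it can lower acetylation and keep developmental genes in check. A peak between genes does not name the gene it acts on, so the protein-coding genes on either side are given only as neighbours.

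Membership was set by the CHD4 lists and by gene positions. The number of peaks, their lack of a proliferating partner and their distance of over 1 kb from genes are therefore a description. With 1 library per state no difference has a replicate check, and p-values are not given. Shares carry exact (Clopper-Pearson) 95% intervals, and medians carry exact order-statistic 95% intervals. Both cover counting error only, since peaks are not replicates. Where a count was 0, the share it allows is given as 3 counts of the total, which is lower than the upper end of the exact interval. Read depth is unknown, and a peak missing from a list can have fallen below that list's threshold. Signal was ranked only within a list, as a percentile of total signal with 100 the strongest.

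The labelled neuronal state could be checked only through H3K4me3, since no RNA was measured. In the list of 28 cytoskeleton and axon genes typical of neurons, 9 had an H3K4me3 peak within 1 kb of an end in neurons and 8 in proliferating cells, beside 30.0% and 37.6% of all 21887 protein-coding genes. Tubb3, Map2 and Elavl3 were among the 9, while Dcx, Gap43, Stmn2 and Rbfox3 had none in neurons. In neurons H3K4me3 was listed at 1 of 20 hair cell markers, 2 of 16 glial markers and 3 of 24 markers of mesenchyme, blood and endothelium.

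Few sequences of these regions could be read, because only promoter windows were at hand. RefSeq windows of mm10 (GRCm38.p6), each holding 250 bases before and 50 bases after a gene start, lay wholly inside 55 of the 581 peaks (9.47%, 95% interval 7.21 to 12.1), beside 108 of 884 intergenic peaks listed in both states (12.2%). There were 61 such windows, and windows of protein-coding genes were barred beforehand by the rule. All 61 were of lncRNA genes, which make long transcripts without a protein product. In 3 of them the window held the whole 50 bp step at which CHD4 signal was highest. These 3 are shown because they give the sequence under the peak summit, in capitals. The fourth is Chaserr, a lncRNA gene that neighbours the chromodomain helicase gene Chd2 and is known to restrain it, chosen after its values were seen because H3K4me3 was listed there in both states. Its summit step ran past the window, so 45 bases are in capitals.
Gm31836, chr5:120235212-120235511, minus strand, between Rbm19 and Lhx5: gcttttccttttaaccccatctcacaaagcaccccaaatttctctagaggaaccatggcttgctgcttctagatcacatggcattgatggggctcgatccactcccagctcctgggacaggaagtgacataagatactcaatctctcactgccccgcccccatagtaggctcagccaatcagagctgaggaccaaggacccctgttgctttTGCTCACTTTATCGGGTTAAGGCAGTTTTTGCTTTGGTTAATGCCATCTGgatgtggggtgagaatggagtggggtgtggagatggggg
6430584L05Rik, chr6:55396637-55396936, plus strand, between Ghrhr and Adcyap1r1: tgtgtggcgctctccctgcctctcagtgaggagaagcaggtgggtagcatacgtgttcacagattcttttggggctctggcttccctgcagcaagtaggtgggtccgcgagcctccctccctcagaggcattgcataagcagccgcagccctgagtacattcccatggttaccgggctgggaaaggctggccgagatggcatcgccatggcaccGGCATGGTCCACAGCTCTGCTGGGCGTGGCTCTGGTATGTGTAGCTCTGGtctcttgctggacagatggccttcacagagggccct
Gm31938, chr12:4523863-4524162, plus strand, between Ncoa1 and Itsn2: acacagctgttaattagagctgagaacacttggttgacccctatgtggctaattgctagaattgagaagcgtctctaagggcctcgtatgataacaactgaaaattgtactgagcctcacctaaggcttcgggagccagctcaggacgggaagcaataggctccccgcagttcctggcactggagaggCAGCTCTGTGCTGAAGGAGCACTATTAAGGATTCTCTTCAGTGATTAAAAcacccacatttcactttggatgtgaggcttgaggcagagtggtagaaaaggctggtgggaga
Chaserr, chr7:73558346-73558645, minus strand, between Chd2 and Fam174b: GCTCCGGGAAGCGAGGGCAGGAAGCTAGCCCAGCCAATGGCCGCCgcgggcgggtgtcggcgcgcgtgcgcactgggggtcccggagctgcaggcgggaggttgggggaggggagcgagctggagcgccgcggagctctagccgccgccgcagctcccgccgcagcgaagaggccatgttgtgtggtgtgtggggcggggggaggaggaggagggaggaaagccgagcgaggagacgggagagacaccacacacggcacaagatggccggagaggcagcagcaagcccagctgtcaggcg
The Chaserr window held 30 CpG dinucleotides and was 72.3% G and C. The other windows held 3, 10 and 5 CpG and were 51.3%, 60.3% and 49.0% G and C, in the order shown. By total CHD4 signal the peak over Gm31836 ranked 1760 of 4599, that over 6430584L05Rik 2117, that over Gm31938 4016 and that over Chaserr 4321.

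Over all 61 windows, the median GC content was 51.7%, beside 48.3% for all 11588 lncRNA windows and 53.3% for 146 lncRNA windows inside intergenic peaks of both states. The median ratio of observed to expected CpG was 0.208, beside 0.245 and 0.297. The distance from the CHD4 summit to the gene start had a median of 622 bp, and was within 500 bp for 24 of the 61. The windows were searched on both strands for 5 motifs, some windows overlapping one another. CAGCTG, an E-box form bound by proneural factors, was in 22 of 61 windows (36.1%), beside 21.2% of windows in both-state peaks, 17.7% of all lncRNA windows and 16.3% of all 32851 windows. CANNTG, the general E-box that includes CAGCTG, was in 93.4%, beside 82.9%, 78.4% and 72.3%. The AP-1 form TGANTCA was in 11.5%, beside 6.16%, 9.31% and 7.81%. ACAANG, a form bound by SOX factors, was in 45.9%, beside 45.2%, 47.0% and 41.2%. TTAATTA, bound by homeodomain factors, was in 4.92%, beside 4.11%, 3.94% and 3.07%. All 4 windows shown above hold CANNTG. Gm31836 also holds ACAANG, Gm31938 holds CAGCTG and TTAATTA, and Chaserr holds CAGCTG. These matches describe letters in windows at lncRNA starts, not in the other 526 peaks.

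One of the 581 peaks covered a miRNA gene. Mir365-2 lay in chr11:79726301-79733150, between Rab11fip4 and Utp6, a peak of rank 2247 without p300. Its mature sequences are given with the seed, bases 2 to 8, in capitals.
miR-365-2-5p: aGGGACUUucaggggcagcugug
miR-365-3p: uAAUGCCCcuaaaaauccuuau
The 2 seeds differ, so the arms fall into separate seed families.

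Most of these peaks carried none of the other marks. No p300 or H3K4me3 peak of either state overlapped 529 of the 581 (91.0%, 88.4 to 93.2). Among the 884 intergenic neuron peaks listed in both states, 232 (26.2%, 23.4 to 29.3) had no such overlap. The share was 87.5% for the 598 neuron-only peaks inside protein-coding genes, which were defined by the same absence of a proliferating peak. It was 55.8% for the 480 intergenic peaks listed in proliferating cells only. The contrast with the both-state group is partly tied to the rule. Neuron peaks with proliferating CHD4 were left out, and 91.9% of proliferating p300 peaks overlapped proliferating CHD4. In the both-state group 67.4% overlapped proliferating p300.

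Neuron p300 overlapped 40 of the 581 peaks (6.88%, 4.96 to 9.26), where it overlapped 20.0% of the whole neuron CHD4 list. Of the 965 neuron p300 peaks, 962 overlapped a neuron CHD4 peak. Neuron p300 overlapped 302 of the 884 both-state intergenic peaks (34.2%, 31.0 to 37.4) and 48 of the 598 neuron-only peaks in gene bodies (8.03%, 5.98 to 10.5). The intervals of the 2 neuron-only groups overlap each other, and both lie below that of the both-state group. None of the 480 proliferating-only intergenic peaks overlapped neuron p300, which allows a share of up to 0.625%. That count was nearly fixed beforehand, because this group overlaps no neuron CHD4 peak, where 962 of the 965 neuron p300 peaks lay. Among the 541 peaks without p300 overlap, 96 (17.7%, 14.6 to 21.2) had a neuron p300 peak within 50 kb, beside 114 of 582 both-state intergenic peaks (19.6%, 16.4 to 23.0). The share of members with p300 moved with the definition. It was 14.5% when a peak counted as shared only if 1 proliferating CHD4 peak by itself covered at least 50% of it. In the stronger 50% of the list it was 21.2%, where all neuron CHD4 peaks had 39.5% and both-state intergenic peaks 51.9%.

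Proliferating p300 overlapped 6 of the 581 peaks (1.03%, 0.380 to 2.23), beside 49.1% of the whole neuron CHD4 list and 67.4% of both-state intergenic peaks. This share is tied to the rule, because 2888 of the 3144 proliferating p300 peaks (91.9%) overlapped proliferating CHD4, and neuron peaks with proliferating CHD4 were left out by definition. The 6 lay beside Pdia4, Lmo4, Zmiz1, Gm40469, Nlrp4f and Septin9. Requiring 50% coverage by 1 proliferating CHD4 peak for a shared peak raised the share to 12.4%. Lists of equal size gave 0.332%, and barring genes of any type gave 0.262%. None of the 40 peaks with neuron p300 also had proliferating p300.

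**Figure D1:**
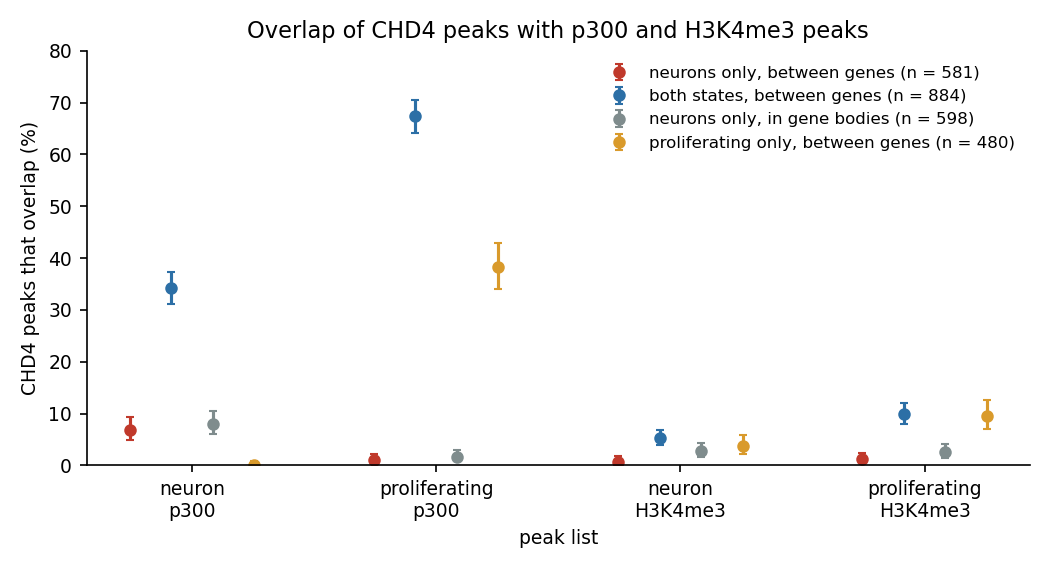
Percent of CHD4 peaks (vertical axis) that overlapped each of 4 peak lists (horizontal axis), for 4 groups of CHD4 peaks shown by colour. Points are shares and bars exact 95% intervals. Neuron-only intergenic peaks sit at 6.88% for neuron p300, where both-state intergenic peaks sit at 34.2%.

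H3K4me3 was also listed at few of them. In neurons it overlapped 4 of the 581 (0.688%, 0.188 to 1.75), beside 26.8% of all neuron CHD4 peaks and 46 of 884 both-state intergenic peaks (5.20%, 3.83 to 6.88). In proliferating cells it overlapped 7 (1.20%, 0.486 to 2.47), beside 31.9% of all neuron CHD4 peaks and 9.84% of both-state intergenic peaks. Because the rule keeps peaks away from both ends of protein-coding genes, overlap with the promoters of those genes was largely removed beforehand. The 8 peaks with H3K4me3 in either state lay beside Btg2, Pdia4, Csf2ra, Nfib, Rps10, Ankrd9, Nlrp4f and Chd2. Those beside Btg2, Ankrd9, Nlrp4f and Chd2 covered starts of the lncRNA genes Gm19497, 6030440G07Rik, Gm36445 and Chaserr.

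The peaks ranked low by total CHD4 signal. Their median percentile was 34.2 (30.5 to 38.1), beside 64.2 for both-state intergenic peaks and 37.1 for neuron-only peaks in gene bodies. Only 11 of the 581 (1.89%) were among the strongest 10% of the list, where 148 of 884 both-state intergenic peaks were (16.7%). The weakest 25% held 220 of them (37.9%), beside 136 of the both-state group (15.4%). By highest signal the median percentile was 41.9, and by mean signal per base 46.6, so the order by signal depended on the measure. Both-state intergenic peaks had medians of 67.9 and 65.3 on these measures. All these values come from the list that set membership and are descriptions.

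p300 overlap was more frequent at higher CHD4 rank in the 3 groups divided by rank. The list was divided by rank into 4 classes of equal size, numbered from 1 (weakest) to 4 (strongest). From class 1 to class 4, neuron p300 overlapped 0 of 220, 2 of 181, 19 of 139 and 19 of 41 of the neuron-only intergenic peaks. The count of 0 allows a share of up to 1.36%. In the both-state intergenic group it overlapped 1 of 136, 2 of 172, 47 of 246 and 252 of 330. In class 3 the shares were 13.7% (8.43 to 20.5) and 19.1% (14.4 to 24.6), and their intervals overlap. In class 4 they were 46.3% (30.7 to 62.6) and 76.4% (71.4 to 80.8), and the intervals do not overlap. When peaks were ranked by highest signal, class 3 had 5.48% (2.40 to 10.5) against 23.1% (17.8 to 29.0), and class 4 had 34.6% (24.3 to 46.0) against 66.1% (61.0 to 71.0). Neuron-only peaks in gene bodies had 15.3% and 38.5% in classes 3 and 4 by total signal.

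**Figure D2:**
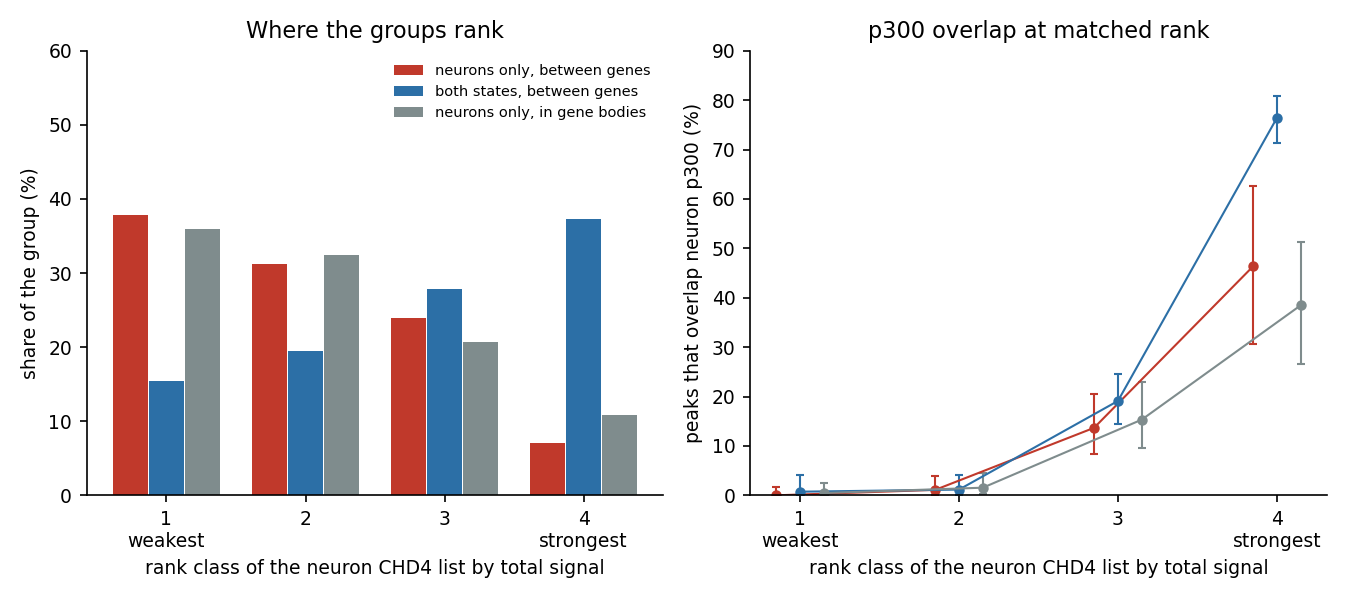
Left, share of each group (percent, bars) in the 4 rank classes of the neuron CHD4 list by total signal. Right, percent of the peaks in each class that overlapped neuron p300, with exact 95% intervals. In class 4, 46.3% of neuron-only intergenic peaks and 76.4% of both-state intergenic peaks overlapped p300.

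Where p300 was present, its summit and that of CHD4 lay close together. In all 40 peaks the positions of highest signal were within 500 bp, and in 22 they were in the same 50 bp step. Both-state intergenic peaks were much alike, with 284 of 310 p300 peaks (91.6%) within 500 bp and 181 in the same step. The p300 peak lay wholly inside the CHD4 peak in 35 of the 40, and covered a median of 61.6% of it. These p300 peaks were weak in their own list, with a median percentile of 25.5 beside 52.5 for 310 p300 peaks at both-state intergenic peaks. Their CHD4 peaks ranked higher than the rest of the group, with a median percentile of 74.3 and a median width of 4750 bp.

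The 8 strongest CHD4 peaks with p300 included one on an unplaced contig and 7 with neighbouring genes. The peak of rank 72, chr9:65189751-65202850 between Igdcc3 and Parp16, was 13100 bp wide, covered the snRNA genes Rnu5g and Gm25313, and held the strongest p300 peak of the 40, rank 47 of its list. The peak of rank 78, chr6:47762151-47768750, lay 23825 bp from Gm40363 and 27391 bp from Pdia4, an endoplasmic reticulum protein disulfide isomerase, and also had H3K4me3 in neurons. The peak of rank 196, chr11:101656051-101661700, lay 3841 bp from the start of Arl4d, and its summit was 127 bp from the U2 snRNA gene Rnu2-10. At rank 306, chr3:101340201-101352700 lay 23972 bp from the start of Igsf3. The peak of rank 460, chr16:73103101-73109250, was the only one between the axon guidance receptor genes Robo1 and Robo2, 55610 bp from Robo1 and 782726 bp from Robo2. Its nearest proliferating CHD4 peak was 2376851 bp away. At rank 570, chr13:52020201-52027150 lay 171726 bp from Gadd45g, a growth arrest and stress gene. Last of the 8, at rank 702, chr1:62822151-62828700 lay 3459 bp from Nrp2, a receptor for class 3 semaphorins, over the lncRNA gene Gm4208.

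The strongest member of all, rank 31, was on the contig chrUn_GL456359 from base 19151 to the contig's end at 22974. Genes were read on numbered chromosomes, X and Y only. This peak therefore has no neighbour here, its place between genes was not checked, and it was left out of the distances to genes. Next in rank, 38, was chr1:134059601-134069000, 5865 bp from the antiproliferative gene Btg2 and 11321 bp from Fmod, with H3K4me3 in proliferating cells only. The other peaks among the 10 strongest without p300 lay between Prok2 and Rybp (rank 197), Gm829 and Aldh1b1 (rank 407), the potassium channel genes Kcna2 and Kcna10 (rank 424), and Gli2, a transcription factor of Hedgehog signalling, and Inhbb (rank 436).

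The median width was 4350 bp (4200 to 4550), with quartiles of 3300 and 5900 bp and a range of 300 to 20500 bp. Both-state intergenic peaks had a median of 4850 bp (4700 to 5150), and proliferating-only intergenic peaks 2875 bp. The whole CHD4 lists had medians of 5200 bp in neurons and 3400 bp in proliferating cells, so the lists themselves differed in width. In all, the 581 peaks covered 2.84 Mb of the 29.2 Mb in the neuron CHD4 list. The widest was the Prok2 to Rybp peak, at 20500 bp, which ranked at percentile 95.7 by total signal and percentile 23.8 by highest signal. It was followed by 18200 bp between Uncx and Micall2, 17600 bp between Gli2 and Inhbb, 13100 bp between Igdcc3 and Parp16, and 12500 bp between Cd2 and Igsf3. The CHD4 summit lay a median of 36.3% of the width from the nearer edge, beside 36.3% in both-state intergenic peaks.

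The nearest protein-coding gene end was a median of 40010 bp away (35240 to 45644), with quartiles of 16300 and 109826 bp. These values cover the 580 peaks on numbered chromosomes, X and Y. Both-state intergenic peaks had a median of 32887 bp (29130 to 37410), and proliferating-only intergenic peaks 28643 bp. Within 10 kb of a gene end lay 90 of the 581 (15.5%, 12.6 to 18.7), beside 20.4% of all 884 and 29.2% of all 480 in those groups. At 10 to 50 kb there were 245 (42.2%), at 50 to 100 kb 90 (15.5%), at 100 to 500 kb 149 (25.6%) and beyond 500 kb 6 (1.03%). The nearest end was the start of the gene for 221 of 445 peaks whose nearest gene has a known strand (49.7%, 44.9 to 54.4), so starts and far ends were nearest about equally often. The same share was 48.7% in both-state intergenic peaks.

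The farthest peak was chr4:23635901-23637450, 859001 bp from Mms22l and 1147535 bp from Pou3f2, a POU transcription factor of neural cells, at percentile 5.25. Next came 2 peaks between Auts2 and Castor2, at 643798 and 610198 bp, one between Tmpo and Nedd1 at 605795 bp and one between Klf4 and Actl7b at 580226 bp. The peaks nearest to the 1 kb limit lay 1029 bp from Emid1, 1072 bp from Snx10 and 1219 bp from Gpr61, the last with p300. Just outside the limit were neuron-only peaks 816 bp from Arhgef10, 745 bp from Dnajb8 and 715 bp from Anks6. On the other limit, the members nearest to a proliferating CHD4 peak were 101 bp away between Rps10 and Pacsin1, 651 bp away between Slc25a42 and Armc6, and 801 bp away between Opa1 and Hes1. The smallest overlaps that kept a peak out were 400 of 500 bp, 450 of 450 bp and 850 of 10500 bp.

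Gaps of middle length held the peaks most densely when counted over full gap length. The rule affects the short end, since a peak must fit within the gap and lie more than 1 kb from gene ends. Counted per Mb of sequence between protein-coding genes, there were 0.332 in gaps up to 50 kb, 0.638 in gaps of 50 to 200 kb, 0.494 at 200 to 500 kb, 0.308 at 500 kb to 1 Mb and 0.109 in gaps over 1 Mb. The longest gaps made up 32.0% of between-gene sequence and held 10.1% of the 577 peaks that lie in a gap between genes on both sides. Both-state intergenic peaks followed the same order except at the short end, with 0.659, 1.06, 0.632, 0.388 and 0.158 per Mb. By chromosome, density ran from 0 on Y and 0.720 per 10 Mb on X to 5.71 on chromosome 6 and 5.79 on chromosome 9. Chromosome 11 had 4.86 per 10 Mb, beside 13.1 both-state intergenic peaks.

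**Figure D3:**
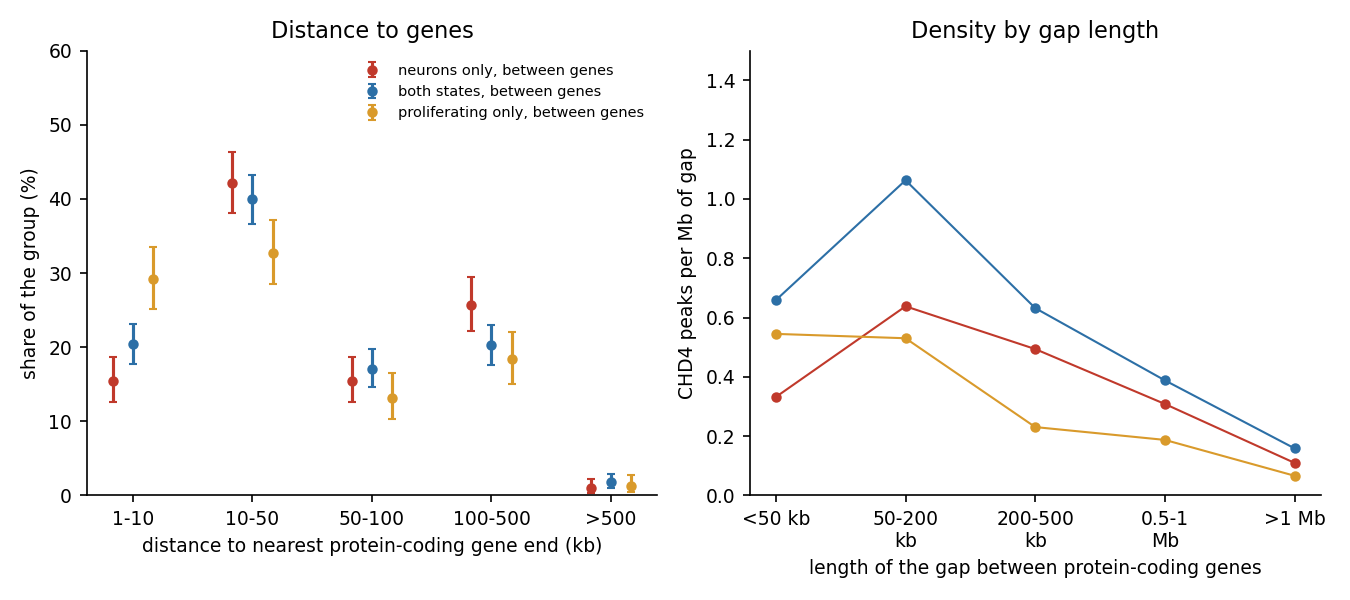
Left, share of each group (percent, with exact 95% intervals) by distance in kb to the nearest protein-coding gene end. Right, CHD4 peaks per Mb of gap by length of the gap between protein-coding genes. Counted over full gap length, neuron-only intergenic peaks are densest, at 0.638 per Mb, in gaps of 50 to 200 kb.

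Most gaps that held a peak held 1. The 577 peaks fell in 417 of 19697 gaps, of which 315 held 1 peak, 68 held 2, 22 held 3 and 12 held 4 to 8. Another neuron-only intergenic peak lay within 50 kb of 179 of the 581 (30.8%, 27.1 to 34.7), where 315 of the 884 both-state intergenic peaks had another of their own group that near (35.6%, 32.5 to 38.9). In the stronger 50% of the list, which holds 179 of the peaks, the share was 15.6%. Such shares also depend on the number of peaks in a group, which differs between these sets, so they do not compare clustering alone. Joined at 50 kb, the 179 peaks with a neighbour formed 81 chains, 72 of them pairs, and the longest had 8 peaks over 160150 bp. A neuron CHD4 peak listed in both states lay within 50 kb of 204 of the 581 (35.1%, 31.2 to 39.1), beside 47.9% (44.5 to 51.2) of the both-state intergenic peaks. A proliferating CHD4 peak lay within 10 kb of 66 (11.4%) and within 1 kb of 3, and the median distance to one was 73026 bp.

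The gap with the most peaks was between Prok2, a secreted prokineticin, and Rybp, a subunit of a Polycomb repressive complex. It is 502172 bp long and held 8 neuron-only and 7 both-state peaks. The gap on the other side of Rybp, toward Shq1, held 5 neuron-only and 2 both-state peaks. Together the 13 neuron-only peaks covered 82250 bp, were 3050 to 20500 bp wide, and ranked between percentiles 18.2 and 95.7 with a median of 53.8. Neuron p300 overlapped 2 of the 13, and 3 lay within 10 kb of a proliferating CHD4 peak. The chain of 8 ran over chr6:99889601-100049750 and both-state peaks lay mostly between it and Rybp.

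**Figure D4:**
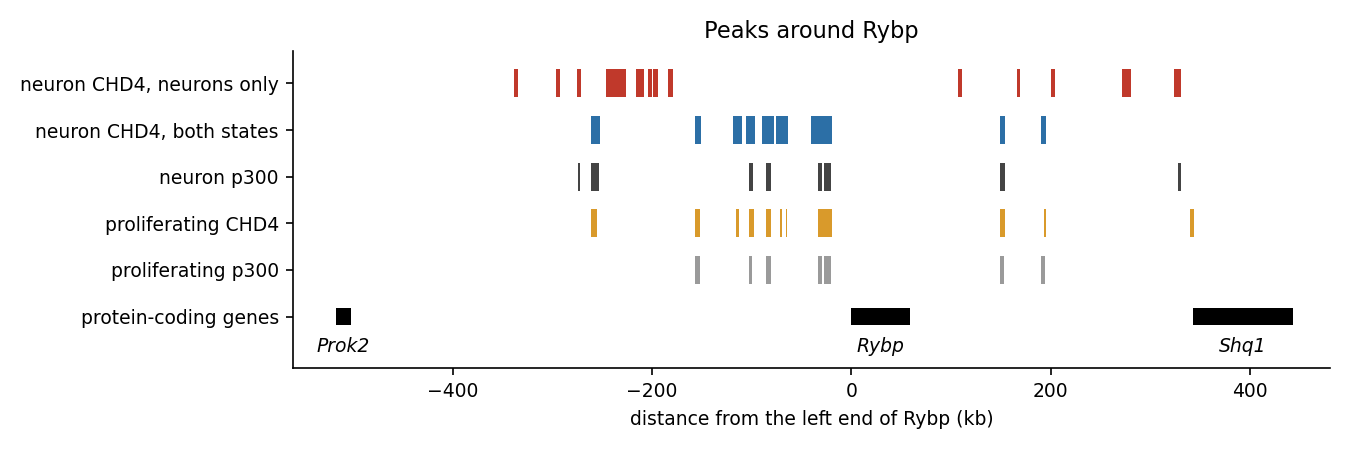
Peaks around Rybp on chromosome 6, by distance in kb from the left end of the gene, 1 row per peak list and black boxes for protein-coding genes. The 13 neuron-only peaks lie on both sides of Rybp, and 8 neuron p300 peaks fall in the same region.

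The 4 other gaps with most peaks were those between Auts2, a neurodevelopmental gene, and Castor2, with 7 neuron-only and 5 both-state peaks in 1556527 bp, between Cryaa and Sik1 (5 and 2), and between H2al1j and Bcor, a BCL6 corepressor (5 and 2), beside the Rybp to Shq1 gap already given. None of these 3 held a neuron-only peak with p300. The 5 peaks beside Gadd45g and the 5 between Camk1g and Plxna2 are as many but cover less sequence.

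On either side of the 581 peaks stood 810 protein-coding genes, 3.70% of all 21887. Of these 600 stood beside 1 peak, 133 beside 2 and 77 beside 3 to 13. Genes flanking both-state intergenic peaks numbered 1150 (5.25%), and 309 genes flanked both kinds, which is 38.1% of the former and 26.9% of the latter. The flanking genes stand beside wide gaps, with a median widest gap of 181027 bp, beside 28406 bp for all genes, and a gene beside a wide gap has more room for a neighbouring peak. Of the 810, 281 had neuron H3K4me3 at an end (34.7%, 31.4 to 38.1; all genes 30.0%), 362 had proliferating H3K4me3 (44.7%; all genes 37.6%), and 162 had neuron CHD4 at an end (20.0%, 17.3 to 22.9; all genes 9.95%). Neuron p300 was at an end of 19 (2.35%, 1.42 to 3.64), beside 1.24% of all genes. For genes flanking both-state intergenic peaks these shares were 37.8%, 47.8%, 21.6% and 3.65%.

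Axon guidance genes direct growing axons to their targets. Of 75 genes in 3 such lists, 19 flanked a neuron-only intergenic peak (25.3%), beside 3.70% of all genes, and 15 flanked a both-state intergenic peak (20.0%), with 9 doing both. Among the 30 of them beside a gap over 200 kb, 14 flanked a neuron-only peak (46.7%), beside 13.7% of all 2811 genes with such a gap, and 11 flanked a both-state peak (36.7%), beside 17.0% of all genes with such a gap. The 33 peaks beside these genes had a median percentile of 29.2, 3 overlapped neuron p300, and 19 lay within 100 kb of the guidance gene. Some other lists also had high shares among genes beside a gap over 200 kb, and some did not. A neuron-only peak was flanked by 9 of 16 otic progenitor regulators (56.25%) and 3 of 5 Notch pathway genes. The share was 34.8% for proneural and neuronal transcription factors, 30.2% for other developmental transcription factors and 11.1% for cadherins and adhesion molecules. Neurotrophin and growth factor genes had 25.0%, and cell cycle genes 2 of 6. Synapse and ion channel genes had 15.4% (2 of 13), near the 13.7% of all genes with such a gap. Neuronal cytoskeleton and axon genes had 0 of 10. The counts describe these lists, which were chosen with earlier results known.

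Semaphorins are guidance ligands, and plexins and neuropilins their receptors. Of 31 such genes 9 flanked a neuron-only peak: Sema3f, Sema4f, Sema6a, Sema6d, Sema7a, Plxna1, Plxna2, Plxnc1 and Nrp2. Nrp2 had 3 peaks 3459 to 81459 bp away, at percentiles 84.8, 70.1 and 80.2, the nearest with p300. Plxna1 had 3, at percentiles 68.5, 51.3 and 52.9, and Plxnc1 had 3, at 28.7, 67.5 and 56.7. Plxna2 had 7, from percentile 1.47 to 66.6, of which 2 lay within 50 kb and 5 lay 457491 bp or more away. The Sema7a peak, at percentile 77.6 and with p300, lay 24636 bp from Sema7a and 2424 bp from Cyp11a1.

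Eph receptors and the ephrins they bind act between touching cells. Of 22, 6 flanked a neuron-only peak: Epha3, Epha4, Ephb1, Ephb3, Efna5 and Efnb1. Their 9 peaks were mostly weak, with a median percentile of 13.0 and a highest of 50.02 beside Efnb1, and none overlapped p300. The 2 beside Epha4 were 1791532 and 1776782 bp from it. Of 22 Slit, Robo and netrin genes, 4 flanked a peak: Robo1 and Robo2 shared the one given above, Robo3 had one at percentile 74.9 20365 bp away, and the netrin receptor gene Neo1 had one at percentile 4.37.

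**Figure D5:**
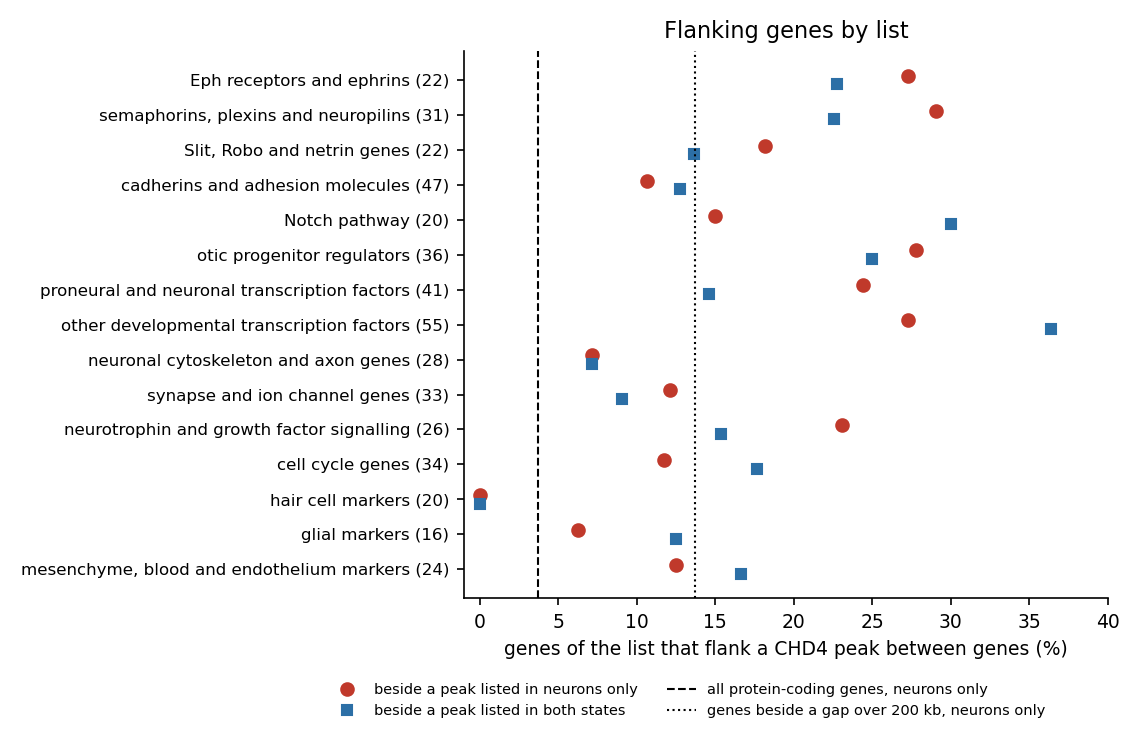
Percent of the genes of each list (number of genes in parentheses) that flank a neuron-only (circles) or a both-state (squares) CHD4 peak between genes. Lines give the neuron-only share over all protein-coding genes (3.70%) and over genes beside a gap over 200 kb (13.7%).

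Among transcription factors and Notch genes, the shares of lists ran from 15.0% to 27.8%, beside 3.70% of all genes. Of 41 proneural and neuronal transcription factors 10 flanked a neuron-only peak (24.4%; both-state 6), among them Sox4 with 2 peaks, both with p300, at percentiles 64.3 and 49.3, 59052 and 78852 bp away. Runx1 had 1 with p300, at percentile 64.3, which lay 686077 bp from it and 66057 bp from Setd4, and Pou3f1 had 2. Of 36 otic progenitor regulators 10 did so (27.8%; both-state 9), with Mycn, Id2 and Lmx1a beside the strongest, at percentiles 54.99, 50.4 and 49.9, and none of their 14 peaks overlapped p300. Sox2, a progenitor factor, had 1 at percentile 26.7, 188795 bp away. Of 55 other developmental transcription factors 15 did so (27.3%; both-state 20). Of 20 Notch pathway genes 3 did so (15.0%; both-state 6): Hes1, Rbpj, the DNA-binding partner of Notch, and the ligand gene Jag1. The Rbpj peak, at percentile 67.6 with p300, lay 27379 bp away, and the Hes1 peak, at percentile 84.2, lay 347257 bp away.

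Other lists were as follows. Of all protein-coding genes 3.70% flanked a neuron-only peak, and of those beside a gap over 200 kb 13.7% did. Of 26 neurotrophin and growth factor genes 6 flanked a neuron-only peak (23.1%; both-state 4), including Vegfa at percentile 72.0 and Wnt7a at percentile 48.4. Of 33 synapse and ion channel genes 4 did so (12.1%; both-state 3): Syn2, Syt1, Grin2b and Kcna2, whose stronger peak is among the 10 strongest. Of 28 neuronal cytoskeleton and axon genes 2 did so (7.14%; both-state 2): Rbfox3, with a peak at percentile 71.6, and Ank3, with 1 of its 2 peaks carrying p300. Of 34 cell cycle genes 4 did so (11.8%; both-state 6): Btg2, Gadd45g, Btg1 and Cdkn1c, which restrain growth. Of 47 cadherins and adhesion molecules 5 did so (10.6%; both-state 6), although their median widest gap was 1367510 bp. Hair cell markers had 0 of 20, which allows a share of up to 15.0%, glial markers 1 of 16 and markers of mesenchyme, blood and endothelium 3 of 24.

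The peaks were not free of all genes, since only protein-coding genes were barred, and barring genes of any type left 381. An annotated non-coding gene or pseudogene overlapped 180 of the 581 (31.0%, 27.2 to 34.9), and a lncRNA gene 174 (29.9%, 26.2 to 33.9). In both-state intergenic peaks these shares were 37.9% (34.7 to 41.2) and 33.7% (30.6 to 36.9), whose lncRNA intervals overlap those of the neuron-only peaks.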

How the data were processed

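The members, gene lists and measures were chosen with earlier results of these data known. CUT&Tag gave 6 peak lists, for CHD4, p300 and H3K4me3 in both states, with 1 library each. IgG libraries, of which there are 2, were not analysed here. Bowtie2, deepTools, SEACR and the build mm10 appear in the submitters' processing notes. Versions, thresholds and the use of IgG are not given in the sources used here, nor is whether a list pools libraries. Total and highest signal per peak are the authors' deposited values, and their scaling is not given, so signal served only to rank peaks within a list. All but 3 CHD4 coordinates are multiples of 50 bp.

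Overlap meant at least 1 shared bp. Genes, strands and sequences came from RefSeq tables of GRCm38.p6, the assembly of mm10. Of 21887 protein-coding genes, 17492 had a strand. All 455 genes of 15 lists were found. No genome sequence was used, so a planned search for motifs at peak centres was not run. Scripts used SciPy 1.17.1 and pandas 2.3.3 with numpy 2.4.6, under Python 3.11.15. On simulated data they recovered the class and distance of all 600 planted peaks and 300 of 300 planted overlaps, with 0 false ones.

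Regions named were the 10 strongest, the 5 widest, the 5 farthest from genes, the 8 strongest with p300, the 5 strongest with H3K4me3, the 5 gaps with most members, those nearest the limits of the rule, and those beside listed genes. The last covers every axon guidance gene and up to 4 genes of each other list. A part is left out for length. The 3 weaker peaks with H3K4me3, the peaks with proliferating p300, the gaps beyond 5, the small RNA genes and Sox2 were chosen after their values were seen. Alternatives tried were other overlap rules, gene distances and gene types, stronger peaks, lists of equal size and, chosen after seeing the data, numbered chromosomes, X and Y only.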

Additional observations from a re-analysis of the deposited data

How the results depend on the processing

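For 10 results under 7 alternatives, 45 of 63 shares and medians stayed within the interval of the reported value, and 5 of 7 numbers of peaks stayed within 1.5 times 581. Counting a peak as shared only when 1 proliferating CHD4 peak covered at least 50% of it gave 739 peaks. Of these, neuron p300 overlapped 14.5% and proliferating p300 12.4%. Their median width was 4850 bp, their median percentile 41.5, and 29.0% had a both-state peak within 50 kb. Counting a proliferating peak within 10 kb as shared left 515, with another such peak within 50 kb for 27.0% and a both-state peak for 29.3%. The stronger 50% of the list held 179, with neuron p300 at 21.2%, a distance of 31108 bp, a width of 5150 bp, a percentile of 28.6 within the trimmed list and another such peak within 50 kb for 15.6%. Lists of equal size gave proliferating p300 at 0.332%. A limit of 10 kb from genes, which sets the distance by itself, gave 50138 bp. Barring genes of any type left 381, with proliferating p300 at 0.262%, a width of 4100 bp, a percentile of 30.0 and another such peak within 50 kb for 23.1%. Apart from the 2 alternatives whose own construction sets a value (distance over 10 kb, percentile in a trimmed list), the cause was not tested. No paired analysis was possible because each group has 1 library. Depth is unknown, so weak peaks may be missing from any list.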

Other observations

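These counts of small RNA genes were made after the values were seen. No tRNA gene lay in any of the 581 neuron-only intergenic peaks, which allows a share of up to 0.516% (3 counts of the total). Peaks over tRNA genes, short templates of RNA polymerase III, numbered 19 of 884 (2.15%, 95% interval 1.30 to 3.34) among both-state intergenic peaks and 27 of 480 (5.63%, 3.74 to 8.08) among those listed in proliferating cells only. The other neuron-only peaks also held none, with 0 of 598 in gene bodies and 0 of 320 at gene ends, which allow up to 0.502% and 0.938%. tRNA genes are often clustered along the genome, and the difference has no replicate check.

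By contrast, snRNA genes were in 4 of the 581 peaks (0.688%, 0.188 to 1.75) and in 7 of 884 both-state peaks (0.792%, 0.319 to 1.62). Of those 4 peaks 3 overlapped neuron p300, where 40 of the 581 did. They cover Rnu2-10, Gm25099, and Rnu5g with Gm25313, at percentiles 95.8, 79.1 and 98.5. The fourth covers Gm24497, at percentile 75.7, and its CHD4 summit lies on the gene. All 4 ranked above the group's median percentile of 34.2 and were in class 4 by total signal. In that class 19 of 41 neuron-only intergenic peaks overlapped neuron p300 (46.3%), so the 4 are not comparable with the whole group.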
